A study of Homo sapiens with 3 samples.

Results

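The clustered H2A and H2B histone genes are the replication-dependent genes of the HIST1 cluster on chromosome 6 and of the HIST2 and HIST3 clusters on chromosome 1. They were chosen by RefSeq identifier, as 33 transcripts of 32 genes. The files list 25443 RefSeq transcripts with a value in at least 1 of the samples. 15 transcripts encode H2A and 18 encode H2B, and HIST1H2BD is the gene with both of its transcripts (NM_021063 and NM_138720) included. 27 transcripts lie in HIST1, 4 in HIST2 and 2 in HIST3. 27 of the 33 members are among these, with at least 1 read in some sample, and HIST1H2BM, HIST1H2BF, HIST1H2BI, HIST1H2BB, HIST1H2BA and HIST2H2AB had none.

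The study asked how the flame retardant BDE-209 (decabromodiphenyl ether, BDE209 in the labels) changes gene expression in human embryonic kidney cells. PolyA RNA was sequenced from 3 samples of an established cell line, named HEK 293 in the labels and HEK293T in the study's methods, and all 3 shared the same serum-supplemented medium. The BDE-209 sample had 1 µM BDE-209 with 1 mM DMSO as its solvent for 48 h, the DMSO sample had 1 mM DMSO for 48 h, and the Control sample had medium free of both according to the protocol, although its treatment label can be read as BDE209 without DMSO. Each condition had 1 sample, so no difference has a replicate check, and the labels give no batch. HEK293T, where that is the line, carries the SV40 large T antigen.

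H2A and H2B form dimers that sit on both faces of the H3 and H4 tetramer in the nucleosome. The clustered genes have no introns in their usual form, are switched on in S phase, and give mRNAs that end just after a conserved 3′ stem-loop in place of a polyA tail. The stem-loop is bound by SLBP, which acts in the processing, export, translation and decay of these mRNAs, while a few members can also read through to a polyA site further downstream. RNA selected for polyA tails therefore holds mostly the tailed forms of these genes.

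RPKM is a transcript's read number divided by its length and by the mapped total of the sample, on a fixed scale, so that levels can be set side by side between genes. The deposited values rise in steps of 1 read, which gave the total that each sample was scaled to, 4843623 reads in Control, 4782043 in DMSO and 4676793 in BDE-209, and the smallest whole number of reads for each transcript. These totals are lower than the uniquely mapped reads listed by the study, where BDE-209 stands slightly above DMSO, and the reason for the gap is not given in the sources used here. The read numbers and the binomial test below rest on the recovered totals. On a transcript of 500 bases, 1 read was worth 0.413 RPKM in Control, 0.418 in DMSO and 0.428 in BDE-209. The members were shallow: the listed ones had a median of 3 reads in Control, 1 in DMSO and 3 in BDE-209, against 46, 45 and 44 for all listed transcripts. 8 members reached 10 reads in some sample, 5 reached 10 in all 3, and 19 listed members had fewer than 10 in every sample. For the 6 unlisted members a count of 0 allows up to 3 reads, or 1.24, 1.25 and 1.28 RPKM on 500 bases in Control, DMSO and BDE-209. These limits and all intervals cover counting error only. Of 8 markers of the line 7 were listed and PAX2 was not. They ran from VIM, at 299, 296 and 261 RPKM (Control, DMSO, BDE-209), down to KRT8, at 6.19, 6.38 and 5.93, and EYA1. The higher EYA1 transcript, at 0.190, 0.145 and 0.296 RPKM, was as low as the endothelial PECAM1, at 0.242, 0.245 and 0.438. For blood 0 of 3 markers were listed, and the liver and the endothelial markers summed to at most 0.490 RPKM each. COL1A1 was the only 1 of 3 fibroblast markers listed, at 4.88, 5.19 and 4.44 RPKM. VIM was lower in BDE-209 than in DMSO by the exact binomial test (adjusted p = 0.0084). That test, described below, compares 2 libraries, not the conditions.

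The coding sequences of the members are close copies of each other, and a read of 49 bases, the length used here, can match several of them. The authors kept reads that mapped to 1 place with at most 2 mismatches. The windows below are the 49-base stretches carried by the most members of each family, shown because a read from them cannot be placed in any 1 gene. The H2A window covers bases 238 to 286 of the coding sequence and is identical in HIST1H2AC, HIST1H2AK, HIST1H2AL and HIST1H2AM. The H2B window covers bases 229 to 277 and is identical in HIST1H2BC, HIST1H2BD, HIST1H2BE, HIST1H2BJ, HIST1H2BK, HIST1H2BN and HIST1H2BO. In HIST1H2AC the first lies in the single coding exon at chr6:26124698-26124746 on the plus strand of GRCh37 (hg19), and in HIST1H2BK the second lies in the coding sequence at chr6:27114301-27114349 on the minus strand. The H2B window had 8 exact places in GRCh37 and 15 with up to 2 mismatches, and the H2A window had 4 and 6.
H2A window: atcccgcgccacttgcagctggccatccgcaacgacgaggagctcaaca
H2B window: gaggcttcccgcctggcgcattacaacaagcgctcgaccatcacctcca

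Coding identity between H2A genes of equal length ran from 77.6% to 92.6%, with a median of 85.2% over 67 pairs, and between H2B genes from 84.8% to 94.0%, with a median of 89.8% over 120 pairs. Some proteins are identical outright. HIST1H2AG, HIST1H2AI, HIST1H2AK, HIST1H2AL and HIST1H2AM encode 1 H2A protein, and HIST1H2BC, HIST1H2BE, HIST1H2BF, HIST1H2BG and HIST1H2BI encode 1 H2B protein. Summed over its 5 genes, the H2A protein had 15 reads in Control, 7 in DMSO and 12 in BDE-209, and the H2B protein had 8, 10 and 11.

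When every 49-base window of the 32 coding sequences was searched in GRCh37, the median gene had 93.5% of its windows at 1 exact place, but 39.3% at 1 place once up to 2 mismatches were allowed. 20 of the 32 genes were unique in under 50% of their windows at 2 mismatches, and HIST1H2BK and HIST2H2AA3 in none. HIST1H2BA, the testis-specific H2B gene, was the most distinct at 98.2% and had no read. HIST1H2BK, with no unique coding window at 2 mismatches and 25.2% by exact match, had the most reads of all members, 1000 over the 3 samples. Its coding sequence has 381 bases and its listed transcript 863. Untranslated sequence was not searched for any gene, so reads from it are not covered by these shares. The plot of unique windows by gene gives the recovered reads beside each share. HIST2H2AA3 had 0.0% unique coding windows by exact match too, yet 44 reads over the 3 samples. How its reads met the authors' rule of 1 place is not given in the sources used here. The part that the placing or dropping of reads from shared windows plays in these levels was not tested.

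**Figure D1:**
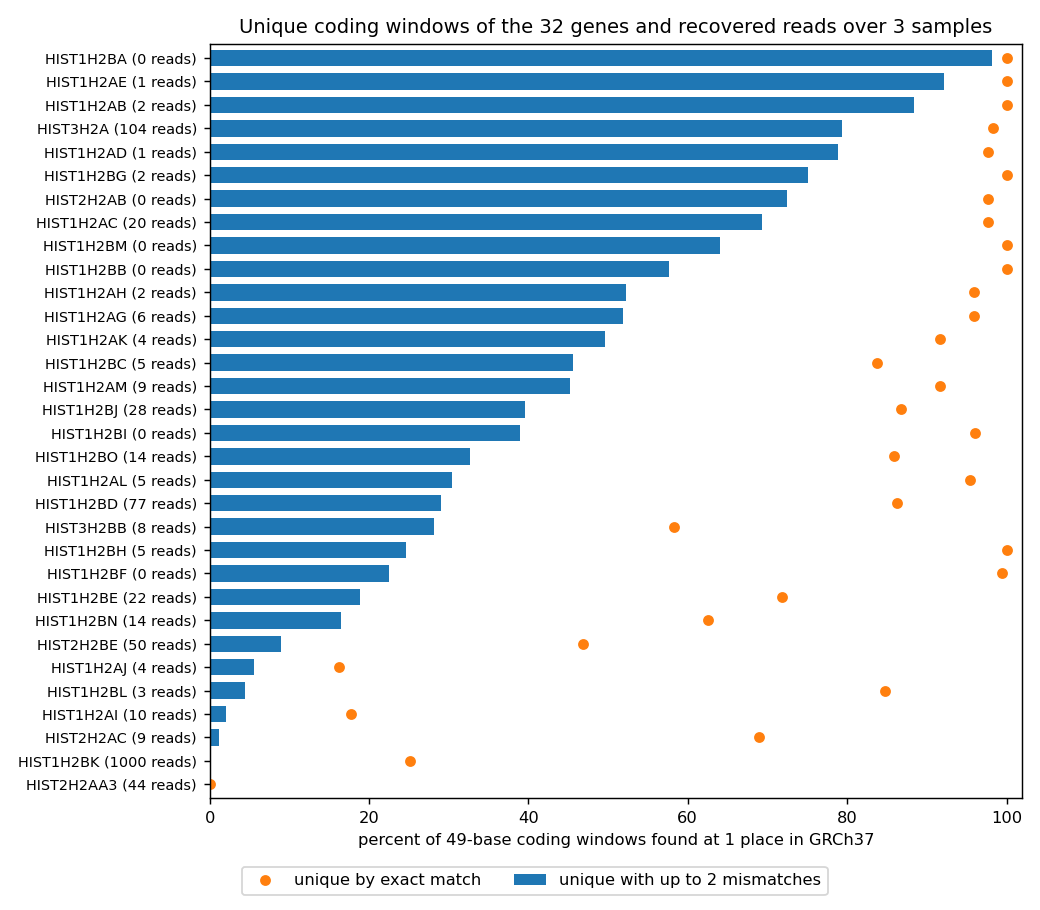
Percent of the 49-base coding windows of each of the 32 genes that occur at 1 place in GRCh37, with up to 2 mismatches (bars) or by exact match (points), with the recovered reads over the 3 samples in brackets. HIST1H2BK and HIST2H2AA3 have 0% at 2 mismatches, and HIST1H2BA has 98.2%.

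The 3′ stem-loop was searched in the 200 bases after each stop codon on GRCh37. All 32 genes had one within 2 mismatches of the conserved pattern, between 23 and 67 bases after the stop. The sequences below, 30 bases each, show the canonical form and its most frequent variant in the 3′ untranslated region, with the stem-loop in capitals. The canonical letters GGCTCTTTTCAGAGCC were found in 22 genes, HIST1H2AC, HIST1H2BN, HIST3H2A and HIST2H2AA3 among them. A variant in the loop was carried by 6 genes, HIST1H2BC, HIST1H2BD, HIST1H2BF, HIST1H2BJ, HIST1H2BK and HIST2H2AB, and 4 genes had a form of their own. These sites lie at chr6:26124890-26124919 (HIST1H2AC, plus strand), chr1:228645063-228645092 (HIST3H2A, minus strand), chr6:27114138-27114167 (HIST1H2BK, minus strand) and chr6:27100093-27100122 (HIST1H2BJ, minus strand) of GRCh37.
HIST1H2AC: acccaaaGGCTCTTTTCAGAGCCcccctac
HIST3H2A: acataaaGGCTCTTTTCAGAGCCacctact
HIST1H2BK: ccccaaaGGCTCTTTTAAGAGCCacttaaa
HIST1H2BJ: ccctaacGGCTCTTTTAAGAGCCacccatg

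Transcript lengths recovered from the RPKM steps separated a few long members from the rest. HIST1H2BK (NM_080593) came out at 863 bases, HIST2H2BE (NM_003528) at 2223 and HIST1H2BD NM_138720 at 829, while the other 24 listed transcripts were between 425 and 564 bases. The stem-loop of HIST1H2BK lies 36 bases after its stop codon. The RefSeq gene spans 8566 bases for HIST1H2BK, 13229 for HIST1H2BD and 2224 for HIST2H2BE. Whether the listed transcript of HIST1H2BK runs on past the stem-loop or is spliced was not tested. The 3 long transcripts held 1095 of the 1449 member reads, or 75.6%, and the 24 short ones held 354, or 24.4%.

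HIST1H2BK was the most abundant member by RPKM. It stood at 78.0 RPKM in Control (326 reads), 87.0 in DMSO (359) and 78.0 in BDE-209 (315). DMSO was the highest sample and the other two were alike. The ratio of BDE-209 to DMSO was 0.897 (95% Clopper-Pearson interval 0.769 to 1.05), and that of DMSO to Control was 1.12 (0.957 to 1.30). Without this gene the members summed to 53.5 RPKM in Control, 57.0 in DMSO and 57.8 in BDE-209, which is 40.7%, 39.6% and 42.5% of the sum with it.

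HIST3H2A (NM_033445), the H2A gene of the HIST3 cluster, was next, at 14.6 RPKM in Control (35 reads), 17.3 in DMSO (41) and 12.1 in BDE-209 (28). BDE-209 was the lowest sample, at a ratio to DMSO of 0.698 with an interval of 0.416 to 1.16. HIST2H2AA3 (NM_003516) had 4.64 RPKM in Control (12 reads), 6.66 in DMSO (17) and 6.01 in BDE-209 (15). Its duplicate gene HIST2H2AA4, which is no member, was listed at exactly the same 3 values and the same length of 534 bases, so the deposited values cannot tell these copies apart.

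HIST1H2BD had its highest values in BDE-209 in both transcripts. NM_138720 was at 2.74 RPKM in Control (11 reads), 3.28 in DMSO (13) and 5.42 in BDE-209 (21). NM_021063 was at 4.34 RPKM in Control (11 reads), 2.80 in DMSO (7) and 5.72 in BDE-209 (14). How reads of the shared exon were counted on each transcript is not given in the sources used here, so these are not independent values. Against DMSO the BDE-209 ratio was 1.65 (0.789 to 3.59) for NM_138720 and 2.05 (0.772 to 5.99) for NM_021063, and both intervals include 1.

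HIST1H2BJ (NM_021058), an H2B gene that shares its upstream region with HIST1H2AG, was at 5.58 RPKM in Control (13 reads), 4.78 in DMSO (11) and 1.78 in BDE-209 (4). Control and DMSO lay close together and BDE-209 was below both. The exact two-sided binomial test on the reads of a pair, at the split of the recovered totals, gave p = 0.0496 for BDE-209 against Control (adjusted p = 0.766, Benjamini-Hochberg over 24661 transcripts) and p = 0.119 against DMSO (adjusted p = 1). This test compares 2 libraries, not the conditions. The BDE-209 ratio was 0.319 (0.0757 to 1.03) to Control and 0.372 (0.0863 to 1.25) to DMSO, and both intervals include 1.

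HIST1H2AC (NM_003512) had the smallest p of the members against DMSO. It was at 1.89 RPKM in Control (5 reads), 4.60 in DMSO (12) and 1.17 in BDE-209 (3). DMSO was the high sample, above both others. The exact binomial test gave p = 0.0353 for BDE-209 against DMSO, at a ratio of 0.256 (0.0463 to 0.947), with an adjusted p of 1 over 24608 transcripts. For DMSO against Control the exact test gave p = 0.0942 (adjusted p = 0.908), at a ratio of 2.43 (0.797 to 8.81).

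HIST1H2BO (NM_003527) was likewise highest in DMSO, at 1.33 RPKM in Control (3 reads), 3.58 in DMSO (8) and 1.37 in BDE-209 (3). HIST1H2BN (NM_003520) was lowest in DMSO, at 1.84 RPKM in Control (4 reads), 0.931 in DMSO (2) and 3.81 in BDE-209 (8). Its exact binomial p for BDE-209 against DMSO was 0.0626 (adjusted p = 1), at a ratio of 4.09 with an interval from 0.816 to 39.5. HIST1H2BE (NM_003523) was lowest in Control, with 1.90 RPKM (4 reads) there, 4.33 in DMSO (9) and 4.42 in BDE-209 (9).

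HIST3H2BB (NM_175055), the H2B partner of HIST3H2A, was at 1.37 RPKM in Control (3 reads), 0.463 in DMSO (1) and 1.89 in BDE-209 (4). HIST1H2BH (NM_003524) was at 0.486 RPKM in Control (1 read), 0.492 in DMSO (1) and 1.51 in BDE-209 (3). Their BDE-209 to DMSO ratios, 4.09 and 3.07, rest on 1 read in DMSO, and the intervals run from 0.405 to 201 and from 0.246 to 161. HIST2H2BE was nearly level, at 1.67 RPKM in Control (18 reads), 1.51 in DMSO (16) and 1.54 in BDE-209 (16).

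The remaining listed members had at most 6 reads in any sample. HIST1H2AI had 6 reads in Control, 1 in DMSO and 3 in BDE-209, and HIST1H2AM had 1, 4 and 4. HIST1H2AG had 5 reads in Control, 0 in DMSO and 1 in BDE-209. HIST2H2AC had 3 reads in every sample. HIST1H2AL, HIST1H2BC, HIST1H2AK, HIST1H2AJ, HIST1H2BL, HIST1H2AB, HIST1H2BG, HIST1H2AH, HIST1H2AE and HIST1H2AD had between 0 and 3 reads in each sample. A single read moves such a value between not listed and about 0.4 RPKM, as the plot of member levels shows.

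**Figure D2:**
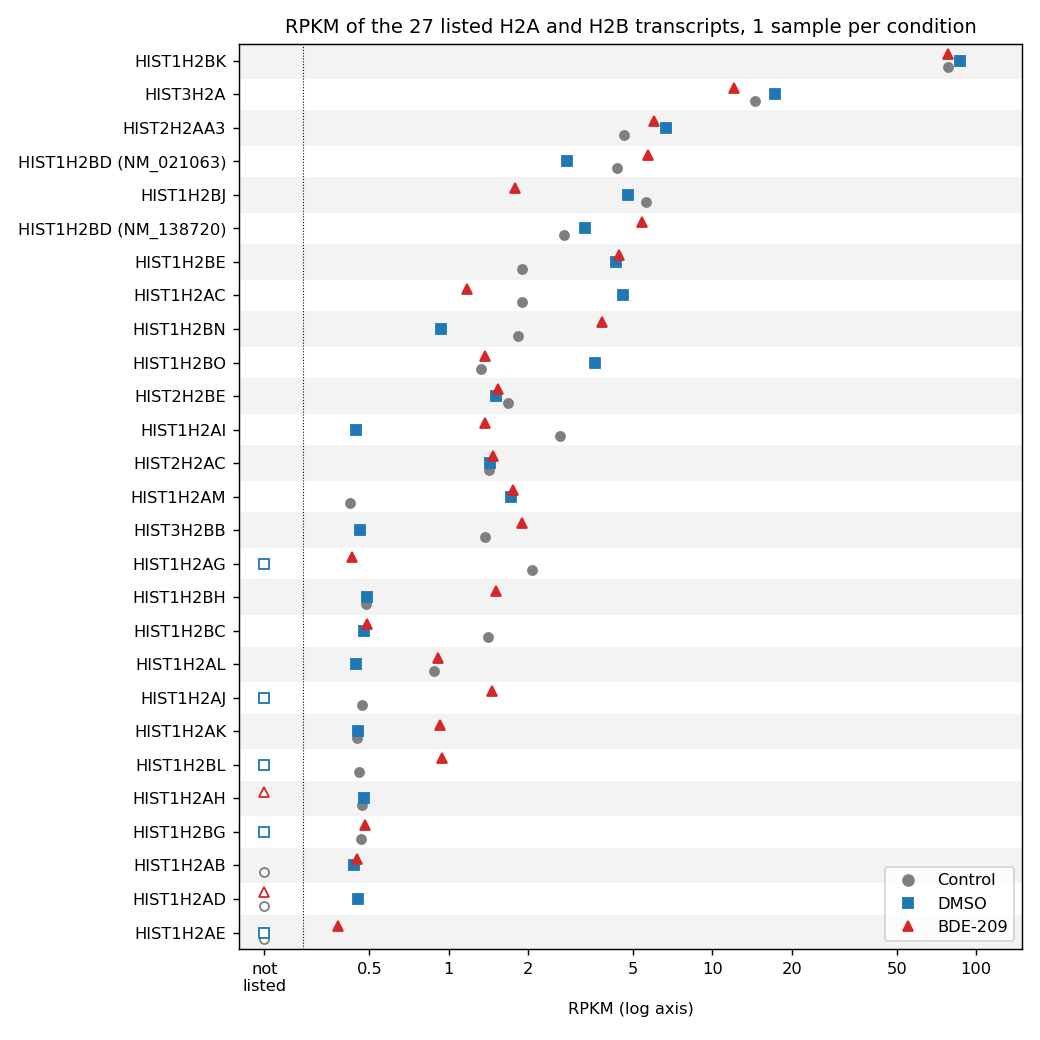
RPKM on a log axis of the 27 listed members (rows, by mean level) in Control (circles), DMSO (squares) and BDE-209 (triangles), 1 sample each, with open symbols for a sample where the transcript was not listed. HIST1H2BK lies between 78.0 and 87.0 RPKM and HIST3H2A between 12.1 and 17.3, while most others lie under 5 RPKM.

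BDE-209 against DMSO addresses the effect of the compound beyond its solvent. For this and the other pairs, 0.5 was added to both RPKM values before a log2 ratio was taken, which damps the ratios of low members, and a member at least 2-fold apart on that scale was counted. 8 of 27 members were at least 2-fold apart, where 1.74% of all transcripts tested were. HIST1H2BN, HIST3H2BB, HIST1H2AJ, HIST1H2BL and HIST1H2BH, 5 in number, were higher in BDE-209 (0.922% of all), and HIST1H2AC, HIST1H2BJ and HIST1H2BO, 3 in number, were lower (0.813%). Most of these rest on few reads: HIST1H2AJ had 3 reads and HIST1H2BL 2 in BDE-209, with 0 in DMSO. Of the 11 members with at least 10 reads over both samples, 4 were 2-fold apart, against 0.611% of all such transcripts, which are mostly longer and deeper. Among transcripts of 400 to 600 bases with 1 to 30 reads over both samples, 8 of 22 members and 12.9% of all 224 were 2-fold apart. The shares of all transcripts, here and for the other pairs, include the members. Of the 29 transcripts called among these 224, 8 were members.

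Fewer than 5 reads over both samples cannot reach an exact binomial p under 0.05 in this pair, and 13 of the 27 members had fewer, against 19.2% of all transcripts tested. 1 of the 27 members, HIST1H2AC, had an unadjusted exact binomial p under 0.05, against 4.56% of all transcripts, and 0 had an adjusted p under 0.05, against 0.0610%. The adjusted limit asks for a far smaller p: the histone gene H1FX, at an exact binomial p of 2.88e-05, had an adjusted p of 0.0472. Members with few reads could not reach the adjusted limit in any pair, so the 0 says nothing about them. The median log2 ratio of the members was 0.03 and that of all transcripts 0.01, while the median of the absolute log2 ratios was 0.89 for the members and 0.15 for all. 13 members had more reads in BDE-209, 8 had fewer and 6 had equal numbers. On the RPKM scale 19 were higher and 8 lower, since 1 read is worth more RPKM in BDE-209, which has the smallest of the recovered totals.

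DMSO against Control addresses the solvent alone. 6 of 26 members were at least 2-fold apart, where 1.57% of all transcripts were. HIST1H2AC, HIST1H2AM, HIST1H2BE and HIST1H2BO, 4 in number, were higher in DMSO (0.728% of all), and HIST1H2AI and HIST1H2AG, 2 in number, were lower (0.838%). Of members with at least 10 reads over both samples, 3 of 10 were 2-fold apart, against 0.648% of all, and in the range of 400 to 600 bases and 1 to 30 reads, 6 of 22, against 10.6%. The same depth held 11 of the 26 members, and 18.9% of all transcripts, under 5 reads. Unadjusted exact binomial p-values under 0.05 were found for 0 of 26 members and 6.30% of all transcripts, and adjusted ones for 0 members and 0.411%. The smallest exact p of a member was 0.0625 (adjusted p = 0.834), for HIST1H2AG. The median log2 ratio was 0.01 for members and 0.00 for all, and 10 members had more reads in DMSO, 12 fewer and 4 equal.

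BDE-209 against Control addresses the compound with its solvent. 6 of 26 members were at least 2-fold apart, where 1.50% of all transcripts were. HIST1H2AM, HIST1H2BE, HIST1H2AJ and HIST1H2BH, 4 in number, were higher (0.734% of all), and HIST1H2AG and HIST1H2BJ, 2 in number, were lower (0.766%). With at least 10 reads over both samples, 2 of 9 members were 2-fold apart, against 0.538% of all, and in the range of 400 to 600 bases and 1 to 30 reads, 6 of 22, against 12.9%. 10 of the 26 members, and 19.3% of all, had fewer than 5 reads. 1 of 26 members, HIST1H2BJ, had an unadjusted exact binomial p under 0.05, against 6.51% of all, and 0 had an adjusted one, against 0.531%. The median log2 ratio was 0.19 for members (0.04 with 1 HIST1H2BD transcript) and 0.01 for all, and 13 members had more reads in BDE-209, 9 fewer and 4 equal.

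**Figure D3:**
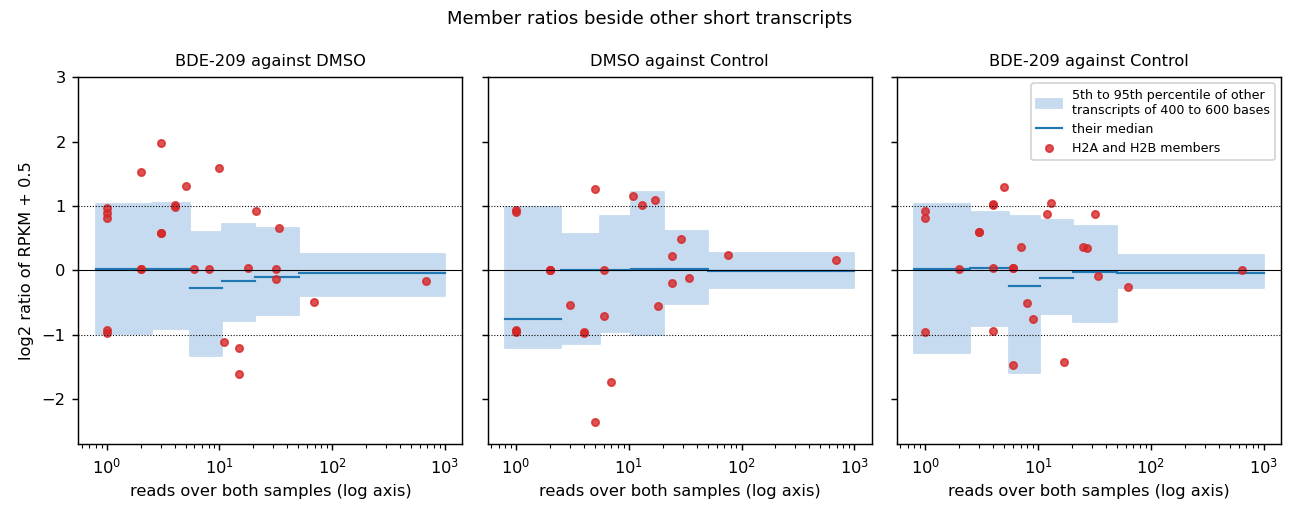
Log2 ratio of RPKM + 0.5 (vertical) against recovered reads over both samples (horizontal, log axis) for the members (points) in each pair of samples, over the 5th to 95th percentile (bands) and median (blue lines) of other transcripts with a recovered length of 400 to 600 bases in the same range of reads, and dotted lines at 2-fold. The members run from -2.36 to 1.97, with 9 of 27 outside the bands for BDE-209 against DMSO, 3 of 26 for DMSO against Control and 8 of 26 for BDE-209 against Control. By definition about 5% of the other transcripts lie beyond each limit of a band, and some bands rest on as few as 28 of them. Members longer than 600 bases are set against the same bands. HIST3H2A, at -0.50 for BDE-209 against DMSO, lies below the band's limit of -0.40. That band pools transcripts with 51 to 1000 reads, and HIST3H2A, with 69, is near its shallow end. The counting interval of its log2 ratio without addition, -1.27 to 0.21, includes 0.

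The pairs share samples, so a member that is high in 1 sample enters both of its pairs. HIST1H2AC and HIST1H2BO, high in DMSO, were 2-fold apart in both pairs that hold DMSO and not in BDE-209 against Control, where their log2 ratios were -0.51 and 0.04. HIST1H2BE, low in Control, was at 1.01 and 1.04 against Control and 0.03 between BDE-209 and DMSO. HIST1H2BJ, low in BDE-209, was at -1.21 against DMSO and -1.42 against Control, and -0.20 between DMSO and Control. The plot of ratios with intervals shows the better-covered members in the 3 pairs.

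**Figure D4:**
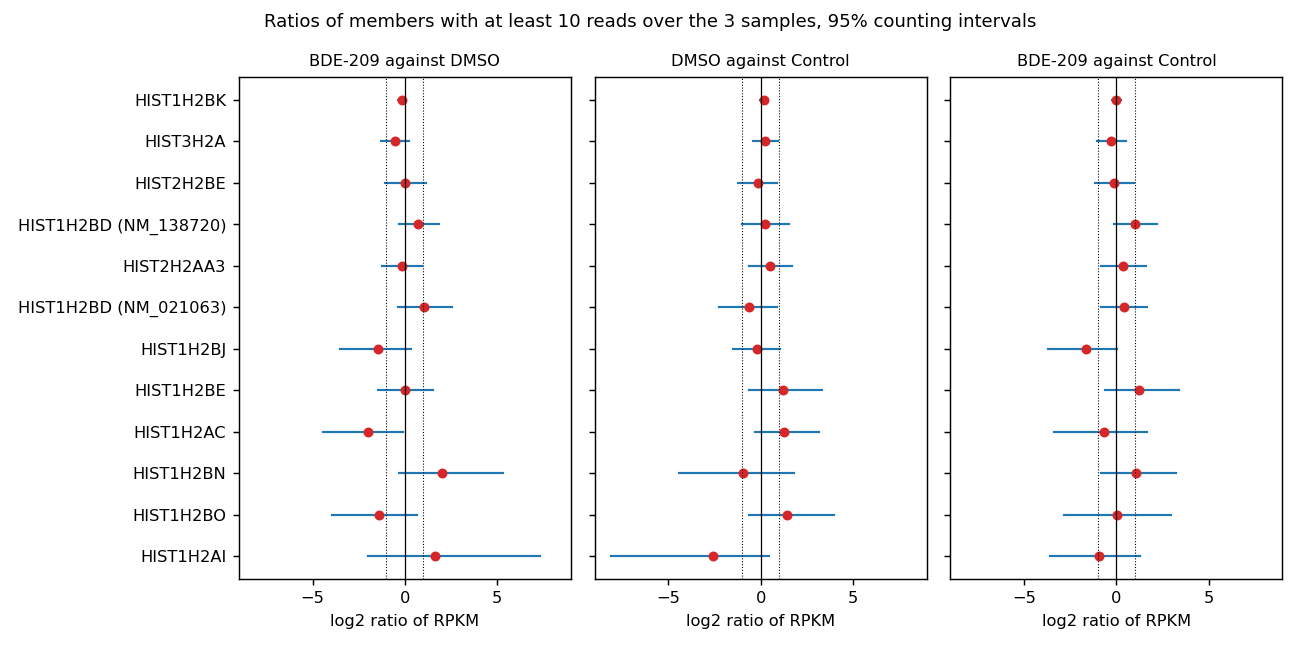
Log2 ratio of RPKM without addition (red points) with its 95% Clopper-Pearson interval (lines) for the 12 members with at least 10 reads over the 3 samples, in each pair, with dotted lines at 2-fold. For 11 of them every interval includes 0. For HIST1H2AC, BDE-209 against DMSO, it runs from -4.43 to -0.08.

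The intervals of the summed levels of all members included no difference in each pair. All members together summed to 131.5 RPKM in Control (471 reads), 144 in DMSO (511) and 135.8 in BDE-209 (467). The log2 ratio of these sums was -0.08 for BDE-209 against DMSO, 0.13 for DMSO against Control and 0.05 for BDE-209 against Control, and from the summed reads the 95% intervals were -0.28 to 0.09, -0.05 to 0.32 and -0.15 to 0.23. HIST1H2BK weighs most in these sums. The H2A members summed to 29.9, 34.4 and 28.4 RPKM in Control, DMSO and BDE-209, and the H2B members other than HIST1H2BK to 23.6, 22.6 and 29.4. The H2B sum without HIST1H2BK had a BDE-209 to DMSO log2 ratio of 0.38, from -0.12 to 0.83 by its reads. Both HIST1H2BD transcripts enter that sum, with 20 of its 69 reads in DMSO and 35 of its 86 in BDE-209. By cluster, without HIST1H2BK, HIST1 members summed to 29.8, 29.7 and 34.8 RPKM, HIST2 to 7.73, 9.60 and 9.01, and HIST3 to 15.9, 17.8 and 13.96. The sums over all members and over HIST1 also hold both HIST1H2BD transcripts, which are not independent. Intervals of sums that hold both may therefore be too narrow.

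Of the 32 genes, 22 lie in 11 head-to-head pairs on GRCh37, each of 1 H2A and 1 H2B gene on opposite strands with 303 to 334 bases between their start codons. The partners were often far apart in level. HIST1H2BK had 1000 reads over the 3 samples and its partner HIST1H2AH had 2, while HIST3H2A had 104 and HIST3H2BB had 8. The H2B gene had more reads in 6 pairs and the H2A gene in 5. HIST1H2AC, at 5, 12 and 3 reads in Control, DMSO and BDE-209, faces HIST1H2BC, at 3, 1 and 1. HIST1H2BN, at 4, 2 and 8 reads, faces HIST1H2AK, at 1, 1 and 2.

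**Figure D5:**
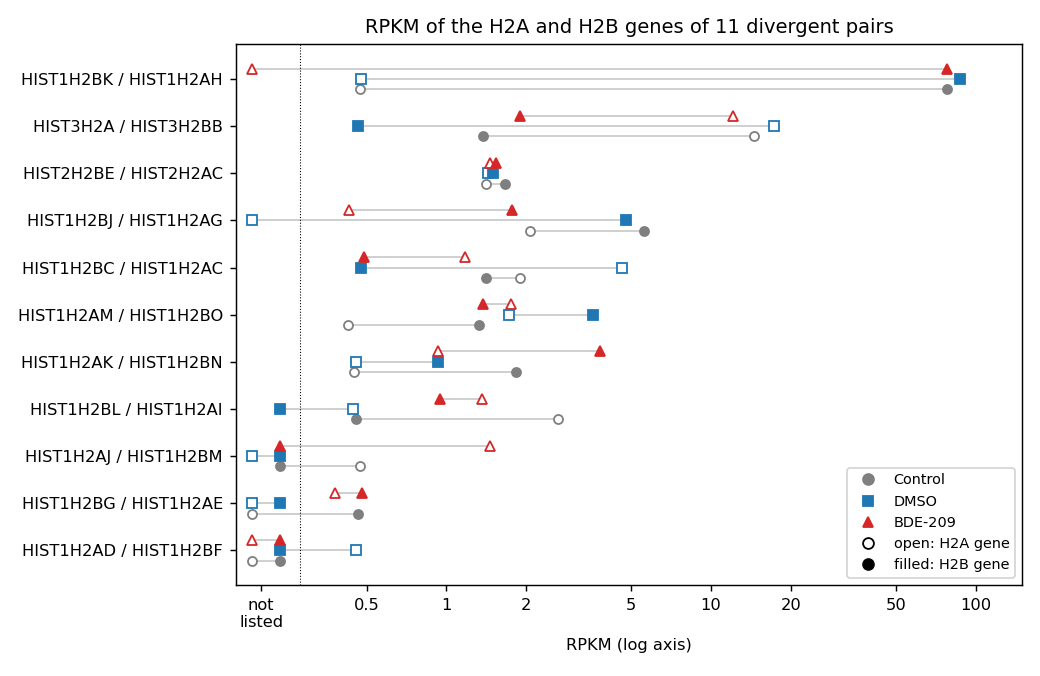
RPKM on a log axis of the H2A gene (open symbols) and the H2B gene (filled symbols) of each of 11 divergent pairs (rows, by summed reads) in Control (circles), DMSO (squares) and BDE-209 (triangles), 1 sample each. The HIST1H2BK and HIST1H2AH pair is the widest apart, and HIST2H2BE and HIST2H2AC lie close together.

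The regions between such partners are short promoters for both. RefSeq promoters (250 bases before to 50 after the start, GRCh38.p14) were found for 31 of the 32 genes, and HIST1H2AH had no entry. The letters CCAAT, on either strand, occurred in 100% of these promoters and in 34.6% of all 35116. TATAAA, on either strand, occurred in 71% and 11.5%, and the octamer ATTTGCAT, the site bound by OCT1 in H2B promoters, in 74.2% and 1.77%. The octamer was in 76.5% of the H2B and 71.4% of the H2A promoters, which share windows within pairs. Overlapping matches were each counted, and a match is a description of letters only. The promoters of HIST1H2BK, the most abundant member (chr6:27146809-27147108, minus strand), and of HIST1H2AC, which had the smallest p against DMSO (chr6:26123922-26124221, plus strand), are printed with these motifs in capitals on either strand.
HIST1H2BK promoter: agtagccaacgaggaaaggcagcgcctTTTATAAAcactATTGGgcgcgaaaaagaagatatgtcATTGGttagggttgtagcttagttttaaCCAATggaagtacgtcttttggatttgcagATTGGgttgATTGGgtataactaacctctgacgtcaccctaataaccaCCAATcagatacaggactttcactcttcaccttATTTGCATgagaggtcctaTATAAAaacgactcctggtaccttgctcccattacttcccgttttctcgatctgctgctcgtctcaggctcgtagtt
HIST1H2AC promoter: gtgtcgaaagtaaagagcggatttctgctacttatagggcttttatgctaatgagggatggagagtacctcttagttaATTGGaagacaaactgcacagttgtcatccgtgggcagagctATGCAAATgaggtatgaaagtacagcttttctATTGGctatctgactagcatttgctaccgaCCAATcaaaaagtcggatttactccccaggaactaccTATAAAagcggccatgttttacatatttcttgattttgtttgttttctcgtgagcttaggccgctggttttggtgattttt

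Both promoters hold all 3 motifs. HIST1H2AC was highest in DMSO, and so was HIST1H2BK, by a smaller ratio. The promoter of HIST1H2BN, which was highest in BDE-209 at 8 reads, against 4 in Control and 2 in DMSO, holds the CCAAT letters and neither of the other motifs. The same holds for HIST3H2A, which was lowest in BDE-209. Whether the motifs go with the differences between samples was not tested.

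The partner histones of the clusters were as shallow. Of 35 clustered H1, H3 and H4 genes 24 were listed, and their RPKM sum was 58.7 in Control, 58.8 in DMSO and 66.9 in BDE-209. HIST2H4A and HIST2H4B were listed at the same values, and so were HIST2H3A and HIST2H3C. Both copies of each enter the sum and the numbers tested. Between BDE-209 and DMSO, 1 of 23 transcripts tested was at least 2-fold higher and 4 lower, where 0.922% and 0.813% of all were. Between DMSO and Control, 1 of 21 was higher and 1 lower (0.728% and 0.838% of all), and between BDE-209 and Control, 0 of 23 were higher and 2 lower (0.734% and 0.766% of all). An adjusted exact binomial p under 0.05 was found for 0 of them in any pair, and those with few reads could not reach it. The linker histone gene HIST1H1C was at 16.6 RPKM in Control, 14.9 in DMSO and 19.6 in BDE-209, and HIST1H4C at 18.0, 17.7 and 19.7.

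Replacement histone variants, whose genes lie outside the clusters and mostly give polyA mRNAs, were far deeper. The 19 listed transcripts of the 11 genes, with all isoforms added, summed to 1568 RPKM in Control, 1508 in DMSO and 1500 in BDE-209. In these variants 0 of 19 transcripts were 2-fold apart between BDE-209 and DMSO (1.74% of all), and 1 had an adjusted exact binomial p under 0.05 (0.0610% of all). This was H1FX (NM_006026), a linker histone, at 99.6 RPKM in Control, 103 in DMSO and 82.2 in BDE-209, with a log2 ratio of -0.33 between BDE-209 and DMSO (exact binomial adjusted p = 0.0472). H2AFX, which encodes the variant that is phosphorylated at DNA breaks, was at 82.5, 85.7 and 69.0 RPKM (exact binomial adjusted p = 0.202 for BDE-209 against DMSO).

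The genes that transcribe and process histone mRNA summed to similar levels in the 3 samples. The listed transcripts of the 24 genes, with SLBP, NPAT and the U7 particle protein LSM10 among them, summed to 1468 RPKM in Control, 1475 in DMSO and 1410 in BDE-209. In each pair 0 of their 35 to 37 transcripts were 2-fold apart, against 1.50% to 1.74% of all. Past the adjusted exact binomial p were 0 as well, against 0.0610% to 0.531% of all. For so few transcripts a count of 0 lies near these shares. SLBP was at 82.8 RPKM in Control, 76.5 in DMSO and 77.2 in BDE-209, and NPAT, the coactivator of the clusters, at 15.8, 17.5 and 17.7. The 27 listed transcripts of the 20 S phase genes, such as PCNA and the MCM helicase subunits, summed to 2563, 2568 and 2536 RPKM. In all these sums each listed isoform of a gene was added, as with both PCNA transcripts, so shared reads may be counted more than once. Again 0 of 27 transcripts were called by either rule, which for this number also lies near the shares of all.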

How the data were processed

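The authors mapped 49-base single-end reads of polyA RNA to hg19 with SOAPaligner at up to 2 mismatches and, by their methods, used those with 1 place. For each sample they deposited a list of RefSeq transcripts with RPKM values and without zeros, so absent transcripts were set to 0 here. How reads were counted on isoforms is not given in the sources used here. Conditions were taken from the labels.

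The totals that the RPKM values were scaled to were recovered from the 1-read steps of 1303 transcripts (best score 0.629, next 0.0832). They are lower than the uniquely mapped reads the study lists and order DMSO and BDE-209 the other way, for a reason not given in the sources used here. Reads were taken as the smallest whole numbers for lengths from 49 bases, so that they are lower bounds. The scripts ran in Python 3.11.15 with pandas 2.3.3, scipy 1.17.1, numpy 2.4.6, matplotlib 3.10.9 and numba 0.67.0 and were tested on simulated data.

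Samples were compared in pairs by log2(RPKM + 0.5), by 95% Clopper-Pearson intervals of ratios and by the exact two-sided binomial test on recovered reads, with Benjamini-Hochberg adjustment over all transcripts. NOISeq, the study's tool, was not used, since with 1 sample per condition its probability rests on simulated samples. Named in full were HIST1H2AC, HIST1H2BN, HIST1H2BD, HIST1H2BO, HIST1H2BH and HIST3H2BB, the 5 members with the highest mean RPKM, members past the exact binomial test, and members 2-fold apart with at least 10 reads in a sample of the pair. HIST1H2BE and HIST2H2BE, outside that rule, and the genes given from the other lists were picked after their values were seen. The members and all lists were chosen with earlier results of these data known.

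Symbols were matched by RefSeq accession for 24434 of 25443 transcripts. Coding positions came from GENCODE 44 on GRCh37, except HIST1H2BF and HIST1H2BG, which were placed by matching their RefSeq promoters. Alternatives covered the pseudocount, filters on reads and RPKM, a size factor, the shortest length, protein-coding transcripts and 1 HIST1H2BD transcript. The background of transcripts of 400 to 600 bases was added after seeing the data.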

Additional observations from a re-analysis of the deposited data

How the results depend on the processing

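The numbers of members at least 2-fold apart moved with the pseudocount and the read filter. In the order BDE-209 against DMSO, DMSO against Control and BDE-209 against Control, they were 8, 6 and 6 as reported, 4, 2 and 2 with a pseudocount of 1 RPKM, 15, 13 and 11 with 0.1 RPKM, and 4, 3 and 2 with at least 10 reads over both samples, where fewer members could be counted. They stayed within 1.5 times under a filter of 1 RPKM, a median-of-ratios size factor (0.9987 to 1.0039) and 1 HIST1H2BD transcript. Under the alternatives run, the numbers past the adjusted exact binomial test stayed at 0, and the log2 ratios of summed RPKM kept their signs. Members with few reads could not pass the adjusted test under any setting, so for them this is no check. The median log2 ratio of members for BDE-209 against DMSO was 0.03 as reported and -0.14 with the read filter, and for DMSO against Control 0.01 and 0.23. For BDE-209 against Control it was 0.19 as reported, 0.04 with 1 HIST1H2BD transcript or the 1 RPKM filter, and 0.34 with the read filter. The alternatives run on single members, a pseudocount or a factor near 1, cannot change the sign of a log2 ratio of at least 1. With a pseudocount of 1 RPKM, 3 ratios of named members for BDE-209 against DMSO fell under 2-fold. These were HIST1H2BO (-1.12 to -0.95), HIST1H2BH (1.02 to 0.75) and HIST3H2BB (1.31 to 0.98). HIST1H2AC, HIST1H2BN and HIST1H2BJ stayed past 2-fold in that pair, at -1.36, 1.32 and -1.06. No paired analysis was possible because each condition had 1 sample. Depth limits single members: for HIST1H2BH, 3 reads against 1 gave an interval of the ratio from 0.246 to 161.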
